A study of Mus musculus with 12 samples.

Results

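Il23a, Srd5a1 and Parvb are 3 of the 21937 genes in a table of RNA from mouse brain myelin, and they were chosen for much lower values at postnatal day 75 (P75) than at postnatal day 18 (P18). The P75 to P18 difference of these genes is therefore given as a description, with no test. The RNA came from light-weight membranes of mouse brain, a preparation rich in myelin, the spiral membrane of oligodendrocytes. The mice were wild-type (WT) male c57Bl6/N animals, with 3 samples at each of the ages P18, P75, 6 months and 24 months, 12 samples in all. The labels give no transgene and no treatment, and the groups differ in age. The labels do not say whether the samples of an age came from separate or pooled animals, and p-values measure only the spread between these samples, which may be technical.

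The 3 genes belong to unrelated pathways. Il23a encodes the p19 chain of interleukin-23, a cytokine that is secreted only when p19 is bound to the p40 chain encoded by Il12b, and that acts on T cells and innate lymphocytes through a receptor of Il23r and Il12rb1. Srd5a1 encodes steroid 5-alpha-reductase type 1, the enzyme that turns progesterone and testosterone into their dihydro forms. In brain it stands at the head of the route to allopregnanolone, a neurosteroid that acts on GABA-A receptors, and myelin is a membrane in which this activity has long been known. Parvb encodes beta-parvin, an actin-binding adaptor that joins integrin-linked kinase (Ilk) and a PINCH protein (Lims1 or Lims2) in the complex that couples integrins to the cytoskeleton. Integrins and this complex are known from work on how oligodendrocytes extend processes and wrap axons.

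The promoters of the genes are shown because their letters can be set against the binding motifs of factors known from oligodendrocytes. RefSeq (build GRCm38.p6) gave a window of 250 bases before the gene start for 2 of the 3 genes, Srd5a1 at chr13:69611464-69611713 on the minus strand and Parvb at chr15:84231793-84232042 on the plus strand. The deposited values were made on build mm9 and carry no coordinates. Capitals mark matches, on either strand, to ACAAAG (a SOX motif), CAGCTG (an E-box), CTGGCAC (a MYRF motif), GGGCGG (a GC box) and CCAAT.
Srd5a1: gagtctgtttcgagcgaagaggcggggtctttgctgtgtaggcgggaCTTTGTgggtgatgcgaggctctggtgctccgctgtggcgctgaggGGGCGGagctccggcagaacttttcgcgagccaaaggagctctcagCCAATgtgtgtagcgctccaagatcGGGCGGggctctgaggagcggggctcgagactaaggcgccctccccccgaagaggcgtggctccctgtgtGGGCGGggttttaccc
Parvb: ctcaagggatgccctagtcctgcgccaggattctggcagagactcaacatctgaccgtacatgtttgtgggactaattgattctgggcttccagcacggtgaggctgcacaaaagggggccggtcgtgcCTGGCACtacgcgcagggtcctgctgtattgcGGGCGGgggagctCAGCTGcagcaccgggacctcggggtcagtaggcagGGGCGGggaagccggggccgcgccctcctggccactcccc
The Srd5a1 window held 3 GC boxes, 1 CCAAT box and 1 SOX match, which is on the opposite strand and so reads CTTTGT here. The Parvb window held 2 GC boxes, 1 E-box and 1 MYRF match. The MYRF letters CTGGCAC occur in 4.19% of the 32851 windows of this length, the SOX letters in 16.5%, the E-box letters in 13%, the GC box in 32.7% and CCAAT in 33.8%. A second MYRF form, CTGGTAC, found in 1.83% of the windows, and TATAAA, found in 12.4%, were in neither window. Both windows were rich in G and C, with 65.2% in Parvb and 64.8% in Srd5a1, against a median of 52.4% over all windows. They held 15 CG dinucleotides in Parvb and 20 in Srd5a1. The last 22 bases of the Srd5a1 window lie inside the longest RefSeq transcript of the gene. A match of letters is a description and not a site.

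Depth ranged from 20299052 to 27214385 reads per sample, recovered from the deposited values, and 16949 to 17261 genes were detected in a sample. All 17 markers of myelin and mature oligodendrocytes were detected in each age group. So were all 8 neuronal and all 6 astrocyte markers, so detection alone does not show how pure the fraction was. Normalised counts are used throughout, which are reads divided by 1 size factor per sample with no correction for gene length, so levels are compared between ages and not between genes. Mbp, the main myelin transcript, varied widely among the P18 samples: it had 3686428, 5580858 and 2134344 normalised counts in P18 replicates 1, 2 and 3, against 1067178 to 1598645 at P75. Markers of microglia, erythroid cells, endothelium, neurons and astrocytes were detected in the fraction. Lymphocytes and dendritic cells share 1 list of 12 markers, of which 5 were abundant enough to test, and it does not tell these cells apart. In such bulk RNA, fewer cells of a type and less RNA per cell cannot be told apart.

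Il23a was high only at the youngest age. The P18 samples had 317, 316 and 277 normalised counts and the P75 samples 12.03, 23.2 and 24.3. Those of 6 months had 7.31, 5.33 and 6.81, and those of 24 months 2.97, 7.57 and 3.70. The P18 samples stood far above every other sample, the P75 samples stood above all samples of 6 months, and 6 months and 24 months overlapped. The P18 mean was 304 ± 22.9 and the P75 mean 19.8 ± 6.79, and the older means were 6.48 ± 1.03 at 6 months and 4.75 ± 2.47 at 24 months (SD, n = 3 each). The P75 mean was 6.54% of the P18 mean, the 6-month mean 2.14% and the 24-month mean 1.56%. These later levels rest on few reads: 823 reads were counted over the 3 samples of P18, 59 over those of P75, 22 at 6 months and 14 at 24 months. Single 24-month samples held 3, 7 and 4 reads, with exact 95% Poisson intervals of 0.619 to 8.77, 2.81 to 14.4 and 1.09 to 10.2 reads, which cover counting error only. Il23a was thus still detected in each of the 12 samples, but its order among the oldest samples was within counting error.

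Srd5a1 was also highest at P18 but levelled out at a plateau rather than a trace. Its P18 samples had 1911, 2476 and 1204 normalised counts and its P75 samples 200.4, 229.9 and 234. The 6-month samples had 266, 272 and 253, and the 24-month samples 197, 213 and 173. The lowest P18 sample was well above every later sample, the 6-month samples were above all of P75 and all of 24 months, and P75 and 24 months overlapped. Mean values were 1864 ± 637 at P18 and 222 ± 18.5 at P75, then 263 ± 9.50 at 6 months and 194 ± 20.1 at 24 months (SD, n = 3 each). The P75, 6-month and 24-month means were 11.9%, 14.1% and 10.4% of the P18 mean. The P18 samples spread widely, with a coefficient of variation of 34.2%, and stood in the same order as their Mbp values: replicate 2 was highest and replicate 3 lowest in both. The part of this spread in the P18 level was not tested.

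Parvb had 1356, 1618 and 1341 normalised counts in its P18 samples and 294, 314 and 203 in those of P75. It had 312, 294 and 277 in the 6-month samples and 199, 189 and 227 in the 24-month samples. P18 was again clear of all later samples. The P75 samples overlapped those of both older ages, and the 24-month samples were all below the 6-month samples. It averaged 1438 ± 156 at P18 and 270.4 ± 59.0 at P75, and later 294 ± 17.3 at 6 months and 205 ± 19.5 at 24 months (SD, n = 3 each), which put P75, 6 months and 24 months at 18.8%, 20.5% and 14.3% of the P18 mean. None of the 3 genes was at 0 in any sample, so the label under which they were grouped, genes shut down after active myelination, is stronger than the values of Srd5a1 and Parvb at the later ages.

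**Figure D1:**
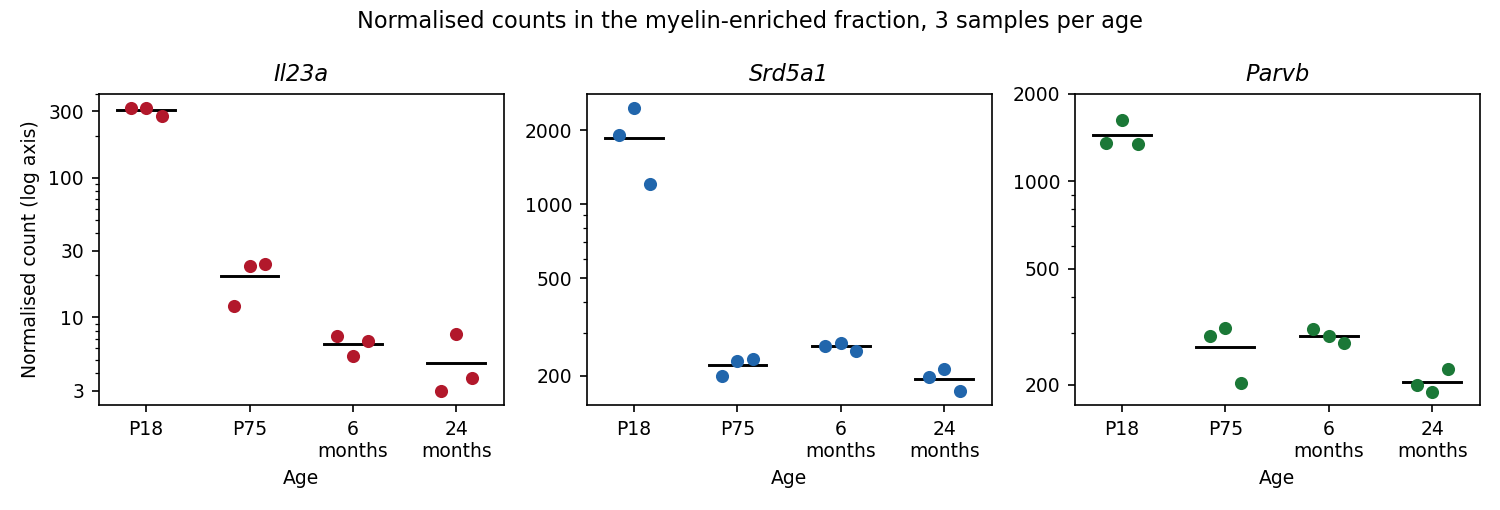
Normalised counts of Il23a, Srd5a1 and Parvb in each of the 12 samples by age (log axis), with points for samples and bars for the mean of 3 samples. The 3 P18 samples of each gene lie above all 9 later samples, and only Il23a goes on to values under 10.

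In log2(value + 1), the scale of all differences below, P75 minus P18 was -3.93 ± 0.31 for Il23a, -3.01 ± 0.18 for Srd5a1 and -2.43 ± 0.14 for Parvb (± SE). The P18 means were 15.3, 8.41 and 5.32 times the P75 means. P75 was below P18 without overlap in all 3 genes, as it was in 22.4% of the 14987 genes tested, while 18.7% of all genes passed the test as lower, and 40.4% passed in either direction. Nothing is read from this count, because the genes were chosen on it. Among the 12499 tested genes with a mean of at least 50 over the 12 samples, Il23a had the most negative difference, Srd5a1 the 4th and Parvb the 7th, and among all 14987 genes tested their ranks were 1, 7 and 11. Il23a reached that mean through its P18 values. Genes beside them in that order were 9630013A20Rik at -3.38, Alas2 at -3.30, 5430435G22Rik at -2.75, Sirt2 at -2.66 and Marcksl1 at -2.38. Alas2 makes haem in red cell precursors and Sirt2 is an abundant deacetylase of myelin. Without P18 replicate 3, its lowest P18 sample, the Srd5a1 difference was -3.29.

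The next step, 6 months against P75, gave differences of both signs. It shares the P75 samples with the step on which they were chosen, so only values are given. Il23a was lower again, by a difference of -1.43 ± 0.31, with no overlap. Such separation downwards held in 30.6% of all genes. Srd5a1 differed by 0.25 ± 0.18 with all 6-month samples above P75, as in 31.7% of all genes, and Parvb differed by 0.15 ± 0.14 with overlap. The sign for Parvb rests on P75 replicate 3, its lowest P75 sample, and became -0.05 without it. At this step 27.1% of all genes passed the test as higher and 25.4% as lower, 52.4% in all.

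The comparison of 24 months with 6 months is the only one that compares no sample of the step on which the genes were chosen. Parvb alone passed it. The estimate of spread behind the test still includes the P18 and P75 samples. Parvb fell in old myelin to 205 ± 19.5 normalised counts at 24 months, against 294 ± 17.3 at 6 months, a difference of -0.52 ± 0.14 (95% interval -0.82 to -0.23, adjusted p = 0.0180, limma with Benjamini-Hochberg adjustment over 14987 genes), or 1.44 times more at 6 months. All 3 samples of 24 months were below all 3 of 6 months. The call was lost without 6-month replicate 1 (adjusted p = 0.0738 by limma), without 6-month replicate 2 (0.0538), without 24-month replicate 1 (0.0594) and without 24-month replicate 2 (0.0778), while the difference stayed between -0.60 and -0.47 when any 1 sample was left out. Srd5a1 averaged 194 ± 20.1 at 24 months and 263 ± 9.50 at 6 months, a difference of -0.44 ± 0.18 (95% interval -0.82 to -0.06) that did not pass (adjusted p = 0.0941 by limma), although the samples did not overlap. It passed when P18 replicate 2 (adjusted p = 0.0447 by limma) or P18 replicate 3 (0.00914) was left out of the shared estimate of spread, and when only the 6 samples compared were fitted (0.0113). Il23a averaged 4.75 ± 2.47 at 24 months and 6.48 ± 1.03 at 6 months, a difference of -0.45 ± 0.31 that did not pass (95% interval -1.12 to 0.21, adjusted p = 0.322 by limma). Its values at these ages were all under 10, the filter for testing, which Il23a met only through its P18 and P75 samples. At this depth the test cannot decide whether Il23a changed at this step. In this comparison 8.34% of all genes passed as lower and 10.8% as higher, 19.2% in all, and 19.9% lay lower without overlap. Of the genes called, 56.5% were higher, but 44.9% when samples were scaled to the sum of all genes but Mbp.

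**Figure D2:**
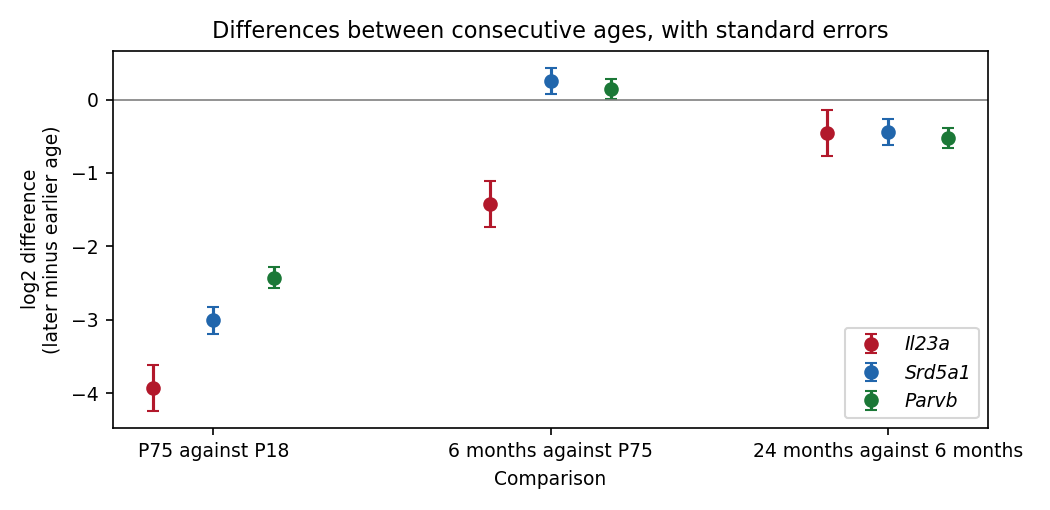
Difference in log2(value + 1) of Il23a, Srd5a1 and Parvb for the 3 consecutive age steps, later age minus earlier age, with bars for the standard error. The P75 step is the one the genes were chosen on; at 24 months against 6 months all 3 values are below 0 and that of Parvb passed the test.

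Of the genes around Il23a, the list held 27 of the IL-23 and IL-12 family, of which 18 were abundant enough to test. The partner that interleukin-23 needs was not detected: Il12b, the p40 chain, was listed at 0 in all 12 samples. So were Il17a and Ifng, 2 cytokines made downstream. Values of 0 do not show absence, because a low level can be missed at this depth. Il23r, the specific receptor chain, had 12 reads over all 12 samples and was not tested. The receptor chain shared with interleukin-12, Il12rb1, fell to 26.5 ± 3.05 normalised counts at P75, against 63.4 ± 16.8 at P18, a difference of -1.20 ± 0.36 (adjusted p = 0.0134 by limma). It fell again to 10.8 ± 1.88 at 6 months (-1.22 ± 0.36, adjusted p = 0.00858 by limma against P75) and averaged 16.3 ± 8.50 at 24 months. Il12a, which pairs with p40 in interleukin-12, averaged 29.8 ± 7.98 at P75 and 23.2 ± 5.21 at P18 and did not pass (0.34 ± 0.27, adjusted p = 0.343 by limma).

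Among the transducers of the pathway, Stat3, the factor that interleukin-23 receptors activate, fell at P75 by 0.35 ± 0.084 (adjusted p = 0.00356 by limma) and was higher again at 6 months than at P75 (0.42 ± 0.084, adjusted p = 0.000515). Il17ra, a receptor chain for interleukin-17, rose at P75 to 204 ± 4.19 normalised counts, against 141 ± 22.1 at P18 (0.54 ± 0.12, adjusted p = 0.00246 by limma). Jak1, a kinase of many cytokine receptors, rose at 6 months against P75 (0.65 ± 0.083, adjusted p = 9.7e-06 by limma) and fell at 24 months against 6 months (-0.52 ± 0.083, adjusted p = 0.00121). Over the whole list 2 genes were higher, 3 lower and 13 did not pass at P75 against P18, where 21.7% of all genes were called higher and 18.7% lower. At 6 months against P75 the counts were 9 higher, 4 lower and 5 not passed, beside 27.1% and 25.4% of all genes. At 24 months against 6 months 2 were higher, 1 lower and 15 not passed, beside 10.8% and 8.34% of all genes, and the calls numbered 1 without 6-month replicate 1. The median difference of the 18 genes was 0.07 at the first step, beside 0.02 for all genes tested, then 0.31 beside 0.003, and then -0.05 beside 0.03. The microglia markers, 11 genes of the brain's resident macrophages, summed to 8776 to 9678 normalised counts at P75, against 6246 to 7073 at P18, with 6 genes higher and none lower. The lymphocyte and dendritic cell markers summed to 412 to 473 at P75, against 358 to 447 at P18, and 5 of these 12 genes reached the level for testing.

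No tested relative of Srd5a1 was lower at P75 than at P18. Of its relatives, Srd5a3, which works in the making of dolichol for protein glycosylation, averaged 264 ± 14.6 at P75 and 239.8 ± 13.8 at P18 and did not pass (0.14 ± 0.096, adjusted p = 0.26 by limma), then rose to 449.8 ± 2.75 at 6 months (0.77 ± 0.096 against P75, adjusted p = 8.26e-06). Tecr, a reductase of fatty acid elongation, rose at P75 by 0.49 ± 0.13 (adjusted p = 0.00631 by limma). Srd5a2, the type 2 enzyme, had 9 reads over all 12 samples. Downstream, Akr1c14, a 3-alpha-hydroxysteroid dehydrogenase of the step to allopregnanolone, stayed low at 11.2 ± 2.75 at P75 and 8.65 ± 2.95 at P18, and its difference of 0.36 ± 0.30 did not pass (adjusted p = 0.372 by limma). Upstream, the genes Hsd3b1, Hsd3b2, Hsd3b6 and Cyp17a1, for making progesterone and androgens, had 10, 4, 4 and 11 reads in all and were not tested. Cyp11a1, which cleaves the cholesterol side chain, averaged 60.1 ± 7.03 at P75 and 81.0 ± 16.1 at P18 and did not pass (adjusted p = 0.122 by limma).

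Other steroid genes mostly went up where they changed. Of 30 genes tested from a list of 46, 13 were higher, 1 was lower and 16 did not pass at P75 against P18, with a median of 0.26 beside 0.02 for all genes, of which 21.7% were called higher and 18.7% lower. Hsd11b1, which regenerates active glucocorticoid, rose to 1285 ± 112 at P75, against 628 ± 32.2 at P18 (1.03 ± 0.095, adjusted p = 1.06e-06 by limma). The membrane-associated progesterone receptor components rose, Pgrmc1 by 0.94 ± 0.11 (adjusted p = 1.14e-05 by limma) and Pgrmc2 by 0.75 ± 0.078 (3.59e-06), as did the membrane progestin receptor genes Paqr6 (1.09 ± 0.19, 0.000306) and Paqr7 (0.62 ± 0.12, 0.000888). Cyp7b1, a hydroxylase of oxysterols and neurosteroids, rose by 0.73 ± 0.12 (adjusted p = 0.000142 by limma). The gene that fell was Sult4a1, a brain sulphotransferase-like protein (-0.53 ± 0.085, adjusted p = 0.00015 by limma). At 6 months against P75, 12 genes were higher, 4 lower and 14 not passed, beside 27.1% and 25.4% of all genes. The largest rise was in Nr3c2, the mineralocorticoid receptor, at 302 ± 50.8 normalised counts at 6 months against 80.4 ± 12.02 at P75 (1.90 ± 0.15, adjusted p = 1.73e-07 by limma). At 24 months against 6 months 4 were higher, 3 lower and 23 not passed, beside 10.8% and 8.34% of all genes. Tspo, a mitochondrial protein of cholesterol transport and a marker of reactive microglia, rose (0.82 ± 0.15, adjusted p = 0.00217 by limma), Pgrmc1 rose (0.63 ± 0.11, 0.00215) and Nr3c2 fell (-0.88 ± 0.15, 0.00196). Those 3 calls held when any sample was left out, whereas the 7 calls of the list became 4 without 6-month replicate 1 or 2, or without 24-month replicate 1 or 2. The microglia marker sums were 15345 to 18833 at 24 months, against 10462 to 12134 at 6 months. The part of microglia in the Tspo value was not tested.

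Several genes of the Parvb complex were lower at P75 too. Of its family, Parvg, the parvin of blood-derived cells, fell to 83.4 ± 9.95 at P75, against 121.8 ± 13.2 at P18 (-0.54 ± 0.16, adjusted p = 0.0109 by limma), a call lost without P18 replicate 2 (adjusted p = 0.0523 by limma) and without P75 replicate 3 (0.0544). Parva, the widely expressed parvin, averaged 1166 ± 41.0 at P75 and 1289 ± 98.7 at P18 and did not pass (-0.14 ± 0.093, adjusted p = 0.239 by limma). Ilk, the kinase-like protein at the centre of the complex, averaged 2843 ± 239 at P75 and 2510 ± 178 at P18 and did not pass (0.18 ± 0.12, adjusted p = 0.269 by limma). Of the PINCH genes, Lims2 fell to 306 ± 19.9 at P75, against 796 ± 136 at P18 (-1.36 ± 0.15, adjusted p = 5.14e-06 by limma), and to 189 ± 39.0 at 6 months (-0.71 ± 0.15 against P75, adjusted p = 0.000834), while Lims1 averaged 545 ± 74.0 at P75 and 675 ± 128 at P18 and did not pass (-0.30 ± 0.13, adjusted p = 0.0778 by limma). Lims1 did pass without P18 replicate 3 (-0.46, adjusted p = 0.00333 by limma) and when scaled to all genes but Mbp (0.0498). Rsu1, which binds PINCH, fell by 0.46 ± 0.11 at P75 (adjusted p = 0.00332 by limma). Whether Lims2 and Lims1 differ in their change was not tested.

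Actin regulators on the cytoskeletal side of the complex were mostly lower at P75: 7 of 11 genes for PIX and GIT proteins, small GTPases and their effectors were lower, 1 was higher and 3 did not pass. Cfl1, the actin-severing cofilin, fell by 0.90 ± 0.13 (adjusted p = 5.97e-05 by limma), its kinase Limk1 by 0.75 ± 0.11 (7.05e-05), the GTPase Cdc42 by 0.59 ± 0.076 (2.05e-05), Rac1 by 0.46 ± 0.10 (0.00221), and Arhgef7, a PIX exchange factor, by 0.52 ± 0.074 (5.08e-05). The exception was Arhgef6, the gene of alpha-PIX, which beta-parvin is known to bind, and it rose by 0.49 ± 0.12 (adjusted p = 0.00416 by limma). Of 13 kindlins, talins and focal adhesion adaptors 4 were lower, among them Zyx (-0.83 ± 0.11, adjusted p = 3.41e-05 by limma), 1 was higher and 8 did not pass. Over all 40 genes the counts were 5 higher, 16 lower and 19 not passed, with a median of -0.18 beside 0.02 for all genes, where 21.7% of all genes were called higher and 18.7% lower.

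On the membrane side of the complex, 3 of 7 integrins were higher at P75 than at P18, 1 was lower and 3 did not pass, with Itgav rising by 0.61 ± 0.11 (adjusted p = 0.000334 by limma) and Itgb3 falling by 0.97 ± 0.24 (adjusted p = 0.00492). At 6 months all 7 were higher than at P75, led by Itgb8 at 186 ± 49.2 normalised counts at 6 months against 46.6 ± 21.3 at P75 (2.03 ± 0.25, adjusted p = 8.17e-06 by limma) and Itga6 at 140.2 ± 27.4 at 6 months against 44.5 ± 4.65 at P75 (1.62 ± 0.18, 2.37e-06), although Itgb1 lost its call without P75 replicate 2 (adjusted p = 0.0571 by limma) or 6-month replicate 1 (0.0560). Of all genes 27.1% were called higher at this step and 25.4% lower. Over the 40 genes 14 were higher, 3 lower and 23 not passed at that step, with a median of 0.13. At 24 months against 6 months, the step at which Parvb fell, 3 of the 40 were higher, 9 lower and 28 not passed, beside 10.8% and 8.34% of all genes, with a median of -0.15 beside 0.03 for all genes. Itgb8 (-1.19 ± 0.25, adjusted p = 0.00592 by limma) and the kinase gene Pak1 (-0.45 ± 0.079, 0.00196) kept their calls when any sample was left out. The 12 calls of that step became 4 without 6-month replicate 1 or 2, or without 24-month replicate 1 or 2. Parva differed there by -0.26 ± 0.093 and did not pass (adjusted p = 0.0617 by limma), but passed without P18 replicate 3 (0.0335), without 6-month replicate 3 (0.0374) and when scaled to all genes but Mbp (0.0345).

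**Figure D3:**
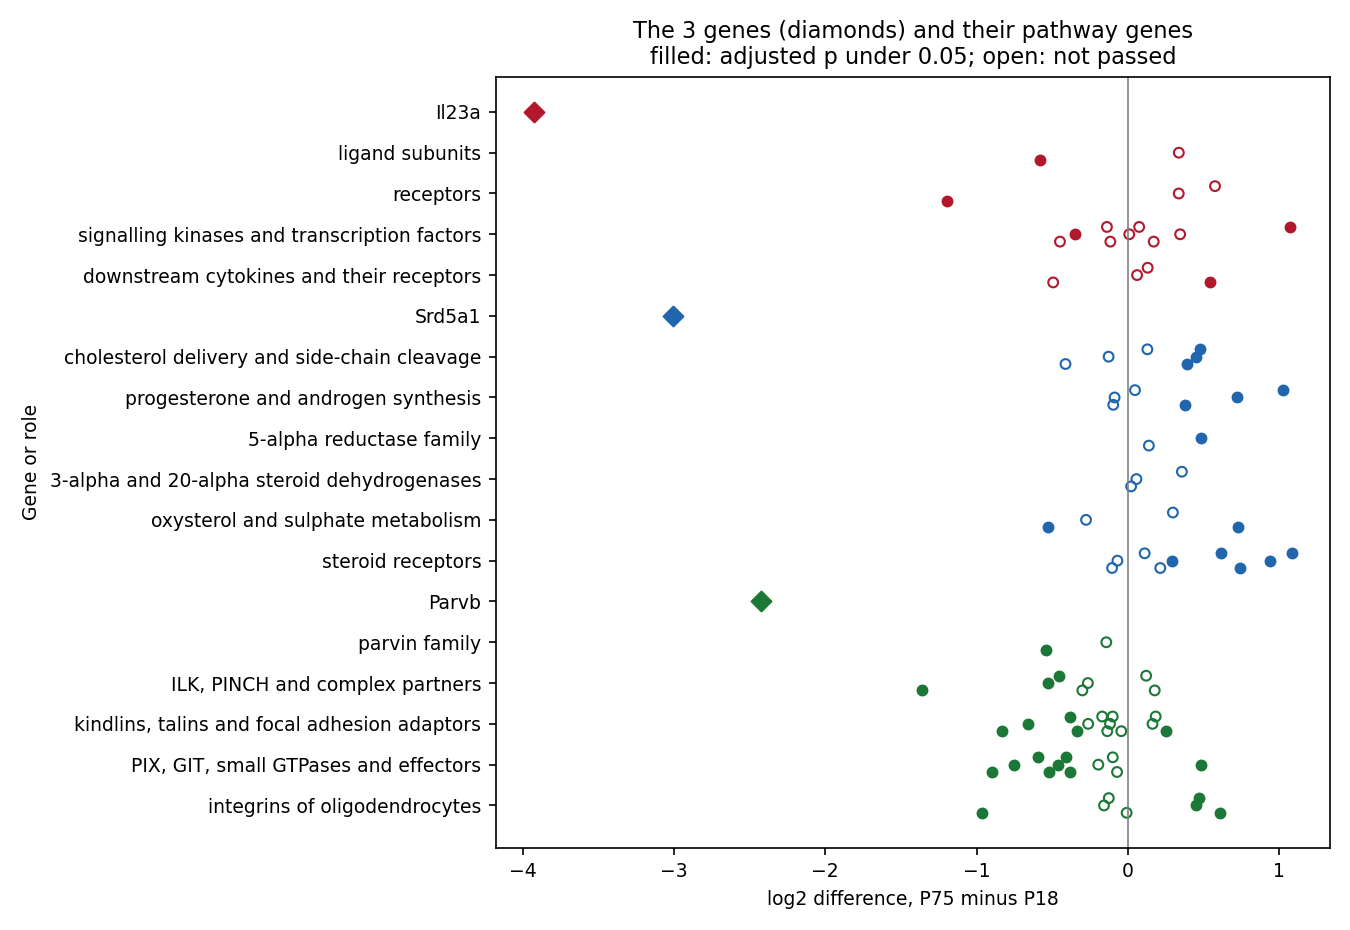
Difference in log2(value + 1), P75 minus P18, of each tested gene of the 3 pathway lists by role, with filled points for adjusted p under 0.05 and diamonds for Il23a, Srd5a1 and Parvb. The 3 diamonds lie below every other gene of their list, from which nothing is read, because they were chosen on this same difference. The genes for PIX and GIT proteins, small GTPases and effectors lie mostly below 0.

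Most markers of newly formed oligodendrocytes were lower at P75 than at P18, the step on which the 3 genes were chosen. Of 14 such markers 13 were lower at P75 than at P18 and 1, Bcas1, was higher, with a median difference of -1.11, where 18.7% of all genes were called lower and 21.7% higher. The Bcas1 call (adjusted p = 0.0135 by limma) was lost without P18 replicate 3 (0.0517) and without P75 replicate 1 (0.0646). Bcas1, the most abundant of them, averaged 89688 normalised counts at P75 and 46351 at P18. The summed level of the list was 82719 to 120791 normalised counts at P75, against 35734 to 82591 at P18. This sum averaged 110326 at 6 months and 141849 at 24 months. Bcas1 made up most of its mean at P18 (60002) and at P75 (95787). The sum therefore does not show the course of the other 13 markers. The non-coding 9630013A20Rik, a member of that list, averaged 1362 normalised counts at P18 and 135 at P75, and later 37.2 at 6 months and 10.9 at 24 months. At 6 months against P75, 2 of the 14 were higher, 7 lower and 5 not passed, beside 27.1% and 25.4% of all genes. At that step the mean of Il23a was lower too, but those of Srd5a1 and Parvb were not. At 24 months against 6 months 0 were higher, 4 lower and 10 not passed, beside 10.8% and 8.34%. Of 17 markers of myelin and mature oligodendrocytes, 7 were higher, 6 lower and 4 not passed at P75, and of 7 precursor markers 2, 1 and 4. Erythroid and platelet markers also moved, with sums of 137 to 158 at P75 and 486 to 617 at P18, 3 of 6 tested genes lower and 1 higher. Most of the change in this sum was in Alas2, a gene of that list, which averaged 41.1 at P75 and 416 at P18. Endothelial and mural markers had 1 higher, 1 lower and 9 not passed. Neuronal markers had 1, 2 and 5, and astrocyte markers 0, 2 and 4. The part of any of these cells in the values of Il23a, Srd5a1 and Parvb was not tested.

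Of the genes with values that lie beside the 3 on their chromosomes, only Parvg was lower at P75 than at P18. These neighbours were picked by position after the values of the 3 genes were known. Il23a, on chromosome 10, lies between Stat2, with 564 ± 23.9 normalised counts at P75 and 466 ± 43.5 at P18, and Pan2, with 324 ± 24.5 at P75 and 300.1 ± 51.1 at P18. Srd5a1, on chromosome 13, overlaps Nsun2 on the opposite strand in the GENCODE annotation. It also overlaps Gm17108 there, on its own strand, which has no values here. In RefSeq Srd5a1 and Nsun2 do not overlap, and Srd5a1 lies between A930018O16Rik, which has no values here, and Nsun2. Nsun2 had 1609.5 ± 154 at P75 and 1390.3 ± 73.3 at P18. Parvb, on chromosome 15, lies between Samm50, with 988 ± 31.8 at P75 and 947 ± 80.2 at P18, and Parvg. The differences were 0.12 ± 0.12 for Pan2 (adjusted p = 0.445 by limma), 0.21 ± 0.086 for Nsun2 (0.0641) and 0.06 ± 0.081 for Samm50 (0.558), none of which passed, although Nsun2 did without P75 replicate 1 (0.0238) and under quantile normalization (0.0457), and 0.28 ± 0.10 for Stat2, whose call (0.0402) was lost in 11 of 21 other settings. Without a stated strand setting, reads of Srd5a1 and Nsun2 cannot be told apart where the genes overlap. A non-coding RNA, Gm33723, overlaps Parvb in RefSeq and has no values here.

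Genes whose course over the 12 samples was most like that of each member were sought among 11536 genes with a mean of at least 50, clone symbols, unnamed transcripts, pseudogenes and small RNAs left out, by Pearson's r of log2(value + 1), as a description over samples that share 4 ages. The nearest to Il23a were Bmf (r = 0.986), Marcksl1 (0.986), Kif19a (0.985), Gng12 (0.984) and Rhob (0.982). Bmf, a pro-apoptotic BH3-only protein, averaged 235, 101, 75.4 and 70.9 normalised counts at the ages in rising order, and Kif19a, a kinesin, 308, 81.4, 44.8 and 32.2. The nearest to Srd5a1 were Gnb4 (r = 0.995), Capn10 (0.988), Sh3bp5l (0.986), Cdc42 (0.981) and Cldn11 (0.981), the tight junction claudin of myelin. Gnb4, a G protein beta subunit, averaged 802, 369, 407 and 353 at the 4 ages. The nearest to Parvb were Slc9a3r2 (r = 0.996), Sh3bp5l (0.993), Mgll (0.991), Ing4 (0.987) and Fyn (0.986). Slc9a3r2, a PDZ scaffold, averaged 1262.5, 533, 559.5 and 471, Mgll is the lipase of the endocannabinoid 2-AG, and Fyn is the Src family kinase known for its role in starting myelination. Cdc42 stood both here and among the actin regulators of the parvin list. Kif19a and Fyn were also in the list of newly formed oligodendrocytes and Cldn11 in that of mature ones. All of these genes kept a larger share of their P18 mean at P75 than the member they resembled. Nothing is read from this, because the members were chosen for their large fall at that step. Once the mean of each age was taken off, other genes came first: Spag5 for Il23a (r = 0.908 of the deviations over the 12 samples), Mdfi for Srd5a1 (0.952) and Rab7 for Parvb (0.947), and none of the genes nearest in this sense was among those nearest by level. Each is the highest r among 11536 genes, picked for its size and not tested. For Il23a, the samples after P18 held only 3 to 25 reads each, so counting error is large in its deviations.

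**Figure D4:**
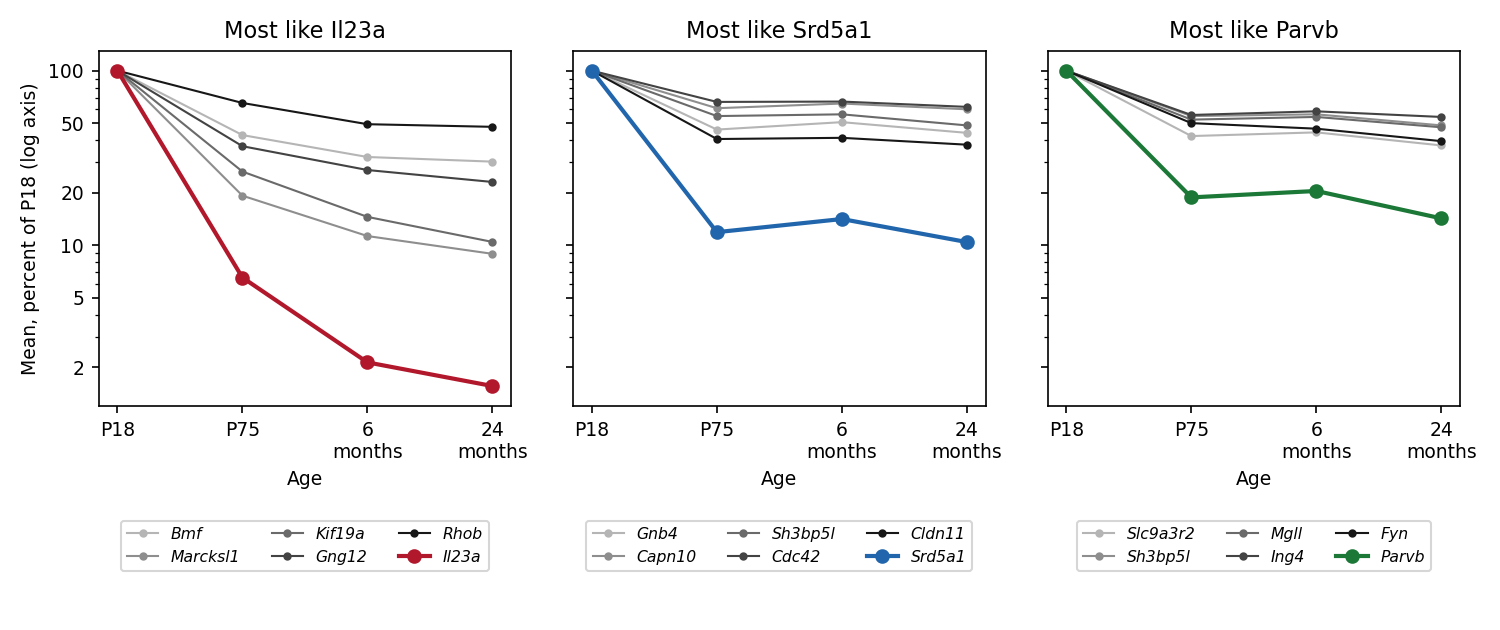
Mean at each age as percent of the P18 mean (log axis) for Il23a, Srd5a1 and Parvb and for the 5 genes most like each. The member, chosen for its large fall from P18 to P75, is the lowest line of each panel at P75. From P75 to 24 months Il23a goes on down to 1.56%. Over the same ages Srd5a1 stays between 10.4% and 14.1% and Parvb between 14.3% and 20.5%.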

How the data were processed

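Each value of the deposited table is a normalised signal: gene reads over a size factor of that sample, computed by the authors. The submitters' processing notes name TopHat, HTSeq, DESeq and mm9, without versions, and the strand setting is not given in the sources used here. All 12 columns were used. In each, 100% of the values up to 1000 were whole multiples of 1 step within 0.1 of a read, and whole reads were recovered with that step, larger values by rounding. Genes reaching 10 in at least 3 samples were tested, 14987 in all, by limma 3.58.1 with a mean-variance trend on log2(value + 1), fitted to all 12 samples. This scale understates changes of low genes. Tests were two-sided, with Benjamini-Hochberg adjustment and a threshold of 0.05, and the fit was tested on simulated data. Consecutive ages were compared, so neighbouring steps share samples. As alternatives, edgeR 4.0.16 called 5982, 7956 and 3185 genes and DESeq2 1.42.0 called 5912, 7780 and 3269 on recovered reads, against 6051, 7859 and 2876. Others changed the pseudocount, filter, scaling, samples fitted or block. The members, lists and neighbours were chosen with earlier results of these data known. Genes named were the members, genes of the lists by role, the next genes by position, and the 5 most alike by r. No sequencing batch is given in the labels, so no within-batch value can be given.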

Additional observations from a re-analysis of the deposited data

How the results depend on the processing

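Of 441 values recomputed under 21 other settings, 420 kept their side of the threshold or, where no test was made, moved by less than 1 SD between replicates (counts of genes by less than 1.5 times). The sign changed in 1, the untested difference of Parvb at 6 months against P75, which was 0.15 as reported and -0.05 without P75 replicate 3. Part of the 420 could not move. The untested differences of the members stay the same when a sample of another age is left out. They also stay the same when only the filter or block changes, or when only the 6 samples compared are fitted. With any 1 sample left out, P75 minus P18 ranged from -4.10 to -3.62 for Il23a, -3.29 to -2.77 for Srd5a1 and -2.55 to -2.23 for Parvb. Likewise, 24 months minus 6 months ranged from -0.51 to -0.36 for Srd5a1, with adjusted p from 0.00914 to 0.236 (limma), and from -0.60 to -0.47 for Parvb, with adjusted p from 0.00439 to 0.0778. With only the 6 samples compared, Srd5a1 kept -0.44 and passed (adjusted p = 0.0113, limma). Over all 21 settings the adjusted p ranged from 0.107 to 0.689 for Il23a, which passed in 0, and Srd5a1 passed in 3 and Parvb in 17. Genes called at 24 months against 6 months ranged from 1230 to 3966 with 1 sample left out, 3966 of them without P18 replicate 3, and calls of the IL-23, steroid and parvin lists from 1 to 4, 4 to 8 and 4 to 15. The cause was not tested. Deviations of same-numbered samples from their age means correlated by -0.13 to -0.03 at P75 and P18. The values were 0.09 to 0.16 at 6 months and P75, and -0.18 to -0.06 at 24 months and 6 months. They do not settle whether the numbers mark samples handled together, and the main fit did not use the numbers. With the replicate block 5871, 7656 and 2583 genes were called, and Parvb kept its call (adjusted p = 0.0212, limma). Low read numbers limit Il23a after P75, and it met the filter for testing only through its P18 and P75 samples.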
